A study of Thermothelomyces thermophilus with 4 samples.

Results

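Gene expression of Myceliophthora thermophila, a heat-loving mould also called Thermothelomyces thermophilus, was compared between cultures fed oat straw and cultures fed triticale straw. Each straw was represented by 1 library of poly(A) RNA from mycelium, taken after 24 h at 45 °C in shaken (150 rpm) Trametes Defined Medium with 2% straw, so no replicate culture and no p-value stands behind any difference below. A canola straw library (30 h) and a flax straw library (24 h), grown at the same temperature, both from dicot plants, served only to place the oat and triticale values. No strain name and no marker genes of mycelium were in the sources used here, so that label was not checked against the data. Levels are FPKM, reads per kilobase of gene model and per 1000000 assigned reads. A gene entered the comparison when its mean FPKM over the oat and triticale libraries was at least 1, which kept 8164 of 9110 gene models and left out 946. It was called higher on a straw when FPKM + 1 was at least 2-fold above the other straw. By this rule 1164 genes were higher on oat (14.3% of the 8164) and 26 were higher on triticale (0.318%), 14.6% in either direction.

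Myceliophthora thermophila lives on decaying plant matter and secretes cellulases, xylanases and oxidative enzymes that stay active at high temperature. Oat is a cereal, and triticale is a hybrid of wheat and rye. Straw of such grasses consists of cellulose embedded in arabinoxylan and lignin. The RefSeq gene table gave a symbol for 6 of the 9110 gene models and no product descriptions, so most genes are named by locus tag and no role is given for them.

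The oat library held 7308467 reads assigned to genes and the triticale library 6495371. In a gene of the median length, 1733 bases, 3 reads (the limit that a count of 0 allows) corresponded to 0.237 FPKM on oat and 0.267 FPKM on triticale. Of the 9110 models 9087 matched a RefSeq locus tag, and 9075 had the length of the RefSeq gene span, introns included. Exact 95% counting intervals of FPKM ratios were computed from recovered reads. They cover counting error only, not the spread between cultures.

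Most of the 2-fold differences were modest in size and lay in genes of low to moderate level. The median log2 ratio of oat over triticale was 0.18, a fold of 1.13. Its quartiles were -0.20 and 0.74, and its 1st and 99th percentiles -0.76 and 1.62, so the distribution had a long arm on the oat side and a short one on the triticale side. Scaling by TMM (trimmed mean of M values) moved every ratio down, to a median of 0.02, and gave 725 genes higher on oat and 59 higher on triticale. At 1.5-fold the counts were 2542 higher on oat and 231 higher on triticale, and at 4-fold they were 5 and 1. Among the 1164 oat-higher genes the median level was 14.4 FPKM on oat and 5.53 FPKM on triticale, against 21.8 and 16.8 FPKM over all genes compared. Together the 1164 accounted for 7.07% of oat reads and 2.79% of triticale reads. The counting interval of the FPKM ratio lay above 1 for 1149 of the 1164 and above 2 for 583. Of the 1011 genes at 100 FPKM or more on oat, 35 (3.46%) were called higher on oat, against 14.3% of all genes compared.

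**Figure D1:**
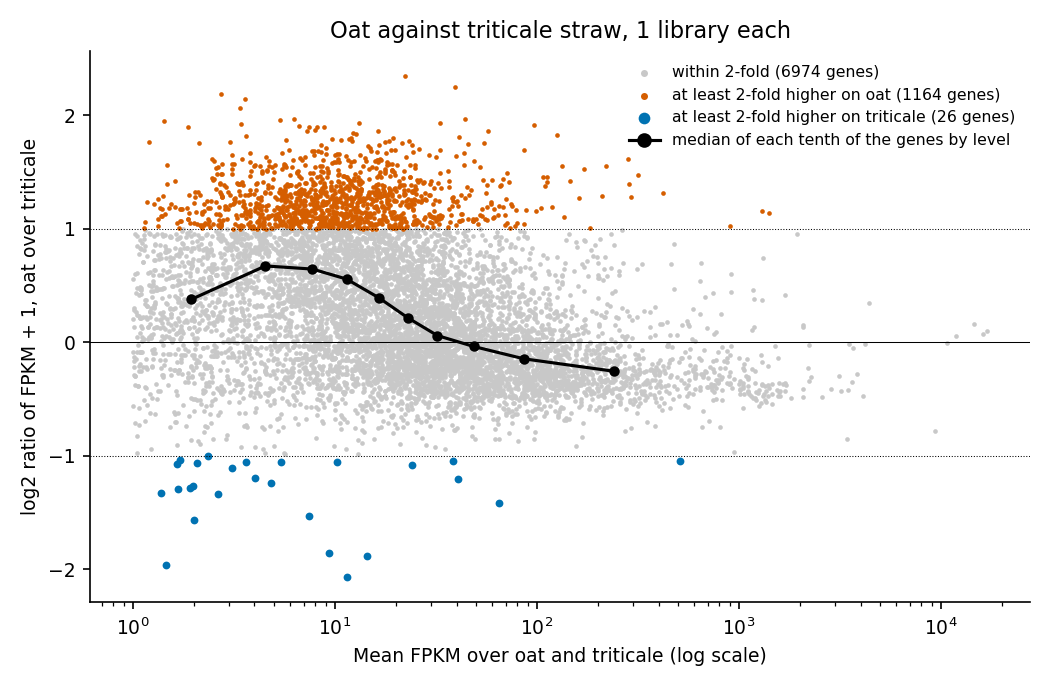
Each point is 1 gene, placed by its mean FPKM over oat and triticale (log axis) and by the log2 ratio of FPKM + 1, oat over triticale; black circles are the medians of the 10 level deciles. The medians decline from 0.67 in the second decile to -0.25 in the tenth.

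The ratio depended on expression level. In the second decile of mean FPKM (3.11 to 6.12 FPKM) the median log2 ratio was 0.67, and 209 of 816 genes (25.6%) were higher on oat. In the seventh decile (27.0 to 39.4 FPKM) the median was 0.06, with 53 of 817 genes (6.49%) higher on oat. In the tenth decile (125 FPKM and above) the median was -0.25, with 17 of 817 genes (2.08%) higher on oat and 1 higher on triticale. The lowest decile (up to 3.11 FPKM) broke the order with a median of 0.38. The median ratio was thus on the oat side in the lower deciles and on the triticale side in the top 3, though after median centring the top 4 are on the triticale side. Mean FPKM shares the 2 libraries with the ratio, so the genes were also binned by their mean FPKM on canola and flax, which share no library with it. The median log2 ratio then was 0.54 in the fourth decile (12.4 to 17.1 FPKM) and -0.23 in the tenth, after 0.20, 0.46 and 0.45 in the first 3 deciles. Triticale over flax gave -0.56 and 0.13 in the same deciles. Over the 10 deciles the median of oat over canola lay between -0.02 and 0.12 and that of oat over flax between -0.09 and 0.11, although these ratios share a library with the level.

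The ratio depended on gene length as well. Its median rose from -0.13 in the shortest decile (153 to 826 bases) and -0.17 in the second (827 to 1119 bases) to 0.45 in the longest (3432 to 41976 bases). The share of genes higher on oat went from 7.10% and 6.98% in these short deciles to 19.7% in the longest. Over the 10 length deciles the median of oat over canola stayed between -0.06 and 0.08, and that of oat over flax between -0.07 and 0.00. The median of triticale over flax went from 0.12 in each of the first 2 deciles to -0.44 in the longest. Genes of the shortest decile made up 5.85% of oat reads and 6.67% of triticale reads, and those of the longest 12.7% and 10.7%.

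**Figure D2:**
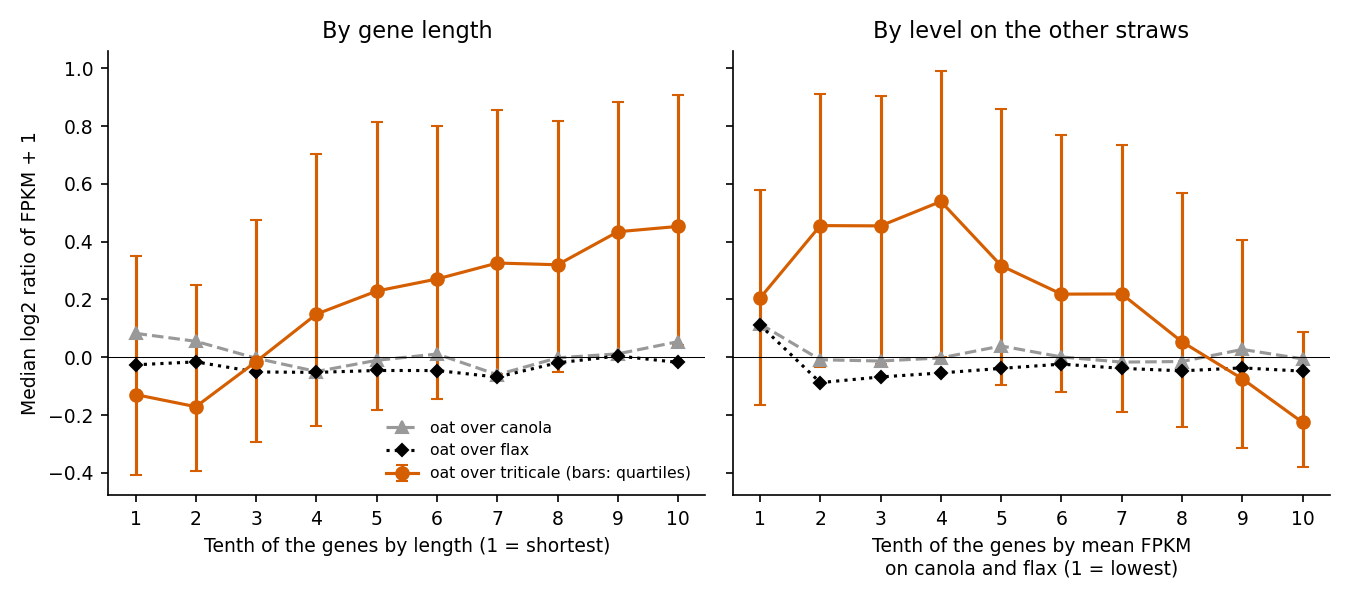
Median log2 ratio of FPKM + 1 in deciles of gene length (left) and of mean FPKM on canola and flax (right), for oat over triticale (circles, bars from the lower to the upper quartile), oat over canola (triangles) and oat over flax (diamonds). Oat over triticale climbs from -0.13 to 0.45 with length and with level goes from 0.20 in the first decile up to 0.54 in the fourth and down to -0.23 in the tenth, while oat over canola spans -0.06 to 0.08 with length and -0.02 to 0.12 with level.

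Length and level were read together in a grid of 5 length quintiles by 5 level quintiles. Among genes of 2717 bases or more at 6.12 to 13.8 FPKM the median log2 ratio was 0.84, and 151 of 418 genes (36.1%) were higher on oat. Among genes of up to 1119 bases above 62.4 FPKM it was -0.35, and 3 of 372 genes (0.806%) were higher on oat. Each trend was present within bins of the other: in the lowest level quintile the median went from 0.16 to 0.76 between the shortest and the longest quintile, and in the highest level quintile from -0.35 to 0.03. Counted against the median of its own cell, 350 genes were at least 2-fold toward oat and 149 at least 2-fold toward triticale. After both trends were subtracted by local regression (lowess), 300 genes were higher on oat (3.67%) and 136 higher on triticale (1.67%). Of these, 283 and 24 were also called on the values as deposited. What makes the triticale library trend with length and level was not tested.

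**Figure D3:**
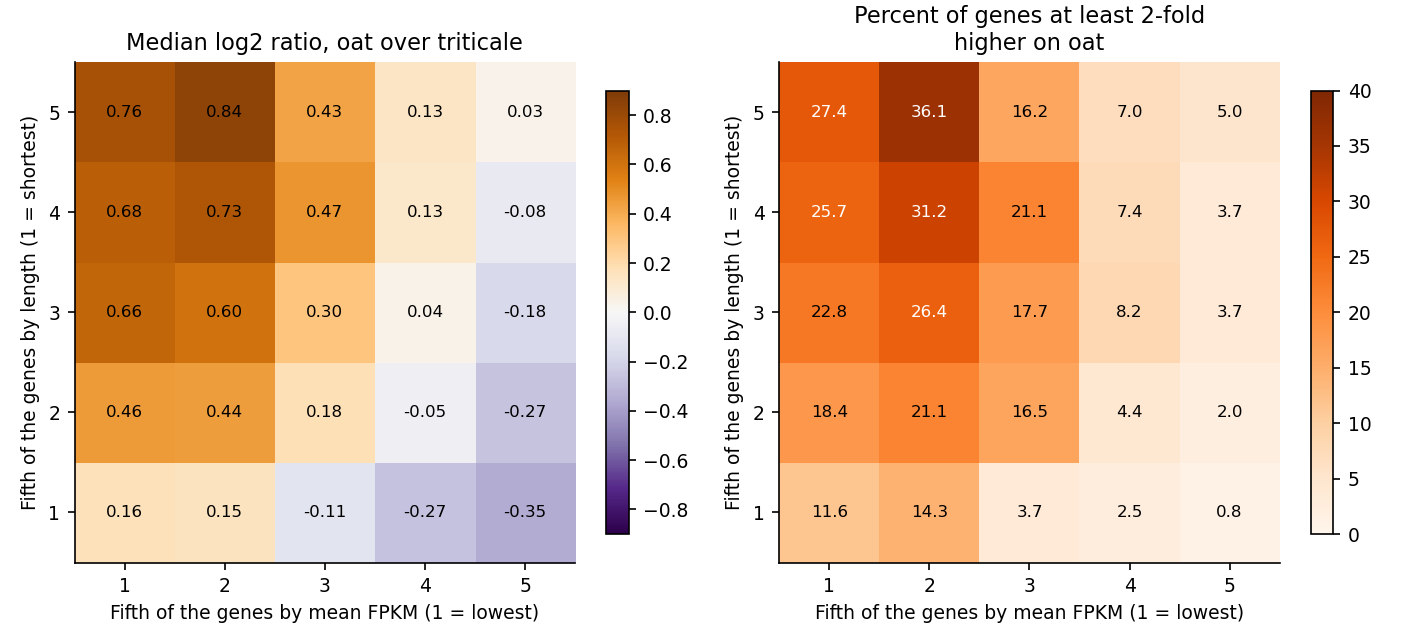
The 8164 genes in quintiles of length (vertical) and of mean FPKM over oat and triticale (horizontal), with the median log2 ratio of oat over triticale (left) and the percent of genes at least 2-fold higher on oat (right) written in each cell. Both are highest for long genes of low to moderate level (0.84 and 36.1) and lowest for short abundant genes (-0.35 and 0.8).

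The most abundant transcripts were close to each other on the 2 straws. The 10 genes with the most reads took 6.39% of oat reads and 6.24% of triticale reads, and 0 of them were called. Calls were rare among abundant genes in general, with 2.08% higher on oat and 0.122% higher on triticale in the tenth level decile. Among the 10 genes MYCTH_109566 stood out, with 2567 FPKM on oat and 1323 FPKM on triticale (896 on canola, 434 on flax). Its ratio of oat to triticale was 1.94 (95% counting interval 1.91 to 1.98), just short of 2-fold, and its log2 ratio went from 0.96 to 1.07 when both trends were subtracted. MYCTH_2298136 went the other way, with 2970 FPKM on oat and 3978 on triticale, a ratio of triticale to oat of 1.34 (1.32 to 1.36). The longest model, MYCTH_2313501, had 104 FPKM on oat, 102 on triticale, 26.5 on flax and 27.6 on canola. It was thus higher on both cereals than on the dicot straws, with a ratio of oat to triticale of 1.02 (1.01 to 1.04).

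The genes whose share of reads was most raised on oat were mostly ones that were highest on oat among all 4 straws. The 10 largest gains together took 3.61% of oat reads and 2.37% of triticale reads, and oat was the highest of the 4 straws for 7 of them. A gene picked for a gain on oat cannot be lowest on oat or highest on triticale, so part of this follows from the choice. Among all genes compared oat was above both canola and flax for 31.1%. The 10 genes all lie in the tenth level decile, where the median log2 ratio of oat was 0.14 over canola and 0.11 over flax. MYCTH_98003 had 1926 FPKM on oat and 875 on triticale, beside 349 on canola and 126 on flax, and its ratio of oat to triticale was 2.20 (2.14 to 2.26). MYCTH_100068 had 1791, 802, 109 and 50.02 FPKM in the same order, with a ratio of 2.23 (2.16 to 2.31). MYCTH_66729 had 1466, 1129, 508 and 410 FPKM, with a ratio of 1.30 (1.27 to 1.32). These 3 genes were above canola and flax on both cereals and higher on oat than on triticale. Another of the 10 was cbdA, the gene of cellobiose dehydrogenase, which oxidises the cellulose fragment cellobiose and passes electrons to lytic polysaccharide monooxygenases. It took 0.257% of oat reads and 0.159% of triticale reads. MYCTH_94171 and MYCTH_2314451 were likewise higher on oat than on triticale but highest on flax, with 1644 and 4925 FPKM on oat, 982 and 3871 on triticale, and 2104 and 8711 on flax.

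The 10 genes whose share was most raised on triticale took 3.33% of oat reads and 4.54% of triticale reads. They were shorter, with a median length of 917 bases against 2093 bases for the 10 raised on oat, and triticale was the highest of the 4 straws for 8 of them. Here too part of this follows from the choice. Among all genes compared triticale was above both canola and flax for 30.7%. The 10 genes all lie in the tenth level decile, however. There the median log2 ratio of triticale was 0.40 over canola and 0.34 over flax. MYCTH_2307942, a model of 301 bases, had 6909 FPKM on oat and 11841 on triticale, with 7739 on canola and 3259 on flax. MYCTH_2314963 had 2455 FPKM on oat and 4425 on triticale, with 2121 on canola and 311 on flax, which gives a ratio of triticale to oat of 1.80 (1.76 to 1.84). MYCTH_49824 was high on both cereals, with 2720 FPKM on oat and 3656 on triticale, and low on the dicot straws, with 23.4 on flax and 74.1 on canola. The log2 ratios of these 10 genes lay between -0.85 and -0.28, none of them 2-fold, and between -0.36 and 0.06 once both trends were subtracted. For MYCTH_49824, MYCTH_2133976 and MYCTH_112137 the sign turned to the oat side (0.04, 0.04 and 0.06).

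The 1164 oat-higher genes were placed against canola and flax. Triticale was below both canola and flax for 1102 of them (94.7%, against 48.0% of all genes compared), and oat was above both for 179 (15.4%, against 31.1%). Their median level was 19.2 FPKM on canola and 16.8 FPKM on flax, above the 14.4 FPKM on oat. Set against the mean log2 level (of FPKM + 1) of canola and flax, oat was within 2-fold for 1022 of the 1164 (87.8%, against 92.9% of all genes compared) and triticale at least 2-fold lower for 973 (83.6%, against 22.1%). Since a gene called higher on oat cannot be lowest on oat or highest on triticale, part of this pattern follows from the call. The 300 genes called higher on oat after subtraction of both trends were placed by the same FPKM values as deposited. Triticale was below both canola and flax for 263 of them (87.7%), and oat was above both for 69 (23.0%). The trends were not subtracted from the values used in this placing.

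With a floor of 10 FPKM on the higher straw, triticale was the lowest of the 4 straws for 9 of the 10 widest oat-to-triticale ratios, close to the 94.7% among all oat-higher genes. MYCTH_76393 had 38.0 FPKM on oat and 6.67 on triticale, beside 71.1 on canola and 27.6 on flax, and its ratio of oat to triticale was 5.70 (4.26 to 7.77). MYCTH_2298417 had 65.8, 13.04, 79.9 and 65.7 FPKM, a ratio of 5.05 (4.04 to 6.36). MYCTH_2058513 had 70.4, 17.3, 93.5 and 88.9 FPKM, a ratio of 4.07 (3.43 to 4.87). In each of these 3 genes oat lay beside canola and flax, and triticale lay below all of them. MYCTH_52713 had 21.5 FPKM on oat and 4.89 on triticale but 485 on canola and 79.5 on flax, so both cereals were far below the dicot straws and triticale was lowest. MYCTH_2313040, among the 10 widest once both trends were subtracted, followed the same order with 133 FPKM on oat and 40.4 on triticale, beside 386 on canola and 381 on flax. Such genes, with oat at least 2-fold below the mean log2 level of canola and flax and triticale lower still, numbered 97 of the 1164 (8.33%). Among all genes compared 3.75% were at least 2-fold below that mean on both cereals.

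In a smaller set oat was above the dicot straws. Oat was at least 2-fold above the mean log2 level of canola and flax for 45 of the 1164 genes (3.87%, near the 2.85% of all genes compared), and triticale was within 2-fold of that mean for 35 of these and at least 2-fold above it for the other 10. MYCTH_2299856 had 154 FPKM on oat and 40.2 on triticale, beside 13.1 on canola and 7.92 on flax, and its ratio of oat to triticale was 3.83 (3.47 to 4.25). MYCTH_112471 had 426 FPKM on oat and 138 on triticale, beside 177 on canola and 192 on flax, with a ratio of 3.08 (2.92 to 3.24). MYCTH_2303045 had 604, 242, 132 and 121 FPKM, with a ratio of 2.49 (2.38 to 2.61). In these 3 genes oat was above every other straw, and triticale lay above, below and above the dicot straws in turn. MYCTH_39279, which was low on the dicot straws (1.61 FPKM on canola and 2.49 on flax), had 1210 FPKM on oat and 596 on triticale, a ratio of 2.03 (1.96 to 2.11). MYCTH_2113877 had 19.3 FPKM on oat and 4.82 on triticale, beside 2.19 on canola and 1.49 on flax. These examples, apart from MYCTH_2299856, were chosen after their values were seen. All 5 were at least 2-fold higher on oat after both trends were subtracted as well, with log2 ratios of 1.94, 1.66, 1.47, 1.45 and 1.18 in the order given. Other settings ended the call for 2 of them: MYCTH_39279 was at 0.84 under median centring and under 2-fold in 5 of 15 settings, and MYCTH_2113877 was at 0.98 with a pseudocount of 10.

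Genes at least 2-fold above the mean log2 level of canola and flax on both cereals numbered 141. Their median log2 ratio of oat over triticale was -0.00, with quartiles of -0.24 and 0.40, and 10 were called higher on oat and 1 on triticale. The share called higher on oat was 7.09%, against 14.3% of all genes compared, and after both trends were subtracted it was 7.80% (11 genes), against 3.67%. Their median level was 56.6 FPKM and their median length 1351 bases, and in the grid cell of that length and level 4.36% of genes were called higher on oat. Against the median of that cell 16 of its 321 genes were at least 2-fold toward oat. The 306 genes at least 2-fold below the dicot mean on both cereals had a median log2 ratio of 0.75, with 97 called higher on oat (31.7%) and 1 on triticale. After both trends were subtracted 27 (8.82%) were higher on oat. Their median level was 8.21 FPKM and their median length 1906 bases, and in the grid cell of that length and level 26.4% were called higher on oat. Both sets were defined with the oat and triticale values that also make the call, so part of these shares follows from the definition.

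The 5 symbol-bearing genes that passed the level filter were all higher on oat in FPKM, and 2 were called. Of all genes compared, 60.7% had a ratio on the oat side and 14.3% were called higher on oat. With 5 genes no lean of this group can be read from these counts. With median centring or TMM scaling ganA was on the triticale side, at -0.06 and -0.07. The gene cat1 encodes a catalase, which breaks down hydrogen peroxide. It had 14.1 FPKM on oat (294 reads) and 4.32 on triticale (80 reads), with 25.6 on canola and 135 on flax, and its log2 ratio was 1.51. The median of its cell in the grid of length and level was 0.84, and after both trends were subtracted its ratio was 0.79, under the 2-fold rule. The gene phy1 encodes a phytase, which releases phosphate from phytate. It had 3.72 FPKM on oat from 42 reads and 1.30 FPKM on triticale from 13 reads, with 8.76 on canola and 11.9 on flax. Its log2 ratio of 1.04 became 0.53 after both trends were subtracted, so both calls were lost. The gene gla1 encodes glucoamylase, which frees glucose from starch, and had 36.9 FPKM on oat and 20.3 on triticale, beside 83.7 on canola and 22.7 on flax. Its log2 ratio was 0.83 and was 0.56 without the trends. The gene cbdA had 807 FPKM on oat and 498 on triticale, beside 267 on canola and 119 on flax. Its log2 ratio was 0.69 before and 0.70 after both trends were subtracted, but ranged from 0.24 to 0.95 over 15 settings of the processing. The gene ganA encodes an endo-galactanase that cuts the galactan side chains of pectin, and had 142 FPKM on oat and 131 on triticale, with 275 on canola and 91.5 on flax. Its ratio of 1.09 lay within counting error (0.998 to 1.18). The laccase gene lcc1 had 2 reads on oat and 1 on triticale and was left out by the filter.

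The 26 genes higher on triticale formed a small and mixed group. Of these, 16 were under 10 FPKM on triticale, with a median of 4.5 reads on oat and 14 on triticale, and 14 of the 16 were shorter than 1000 bases. The counting interval held equal levels for 5 of the 26. After both trends were subtracted 24 of the 26 were still at least 2-fold higher on triticale. The other 10 had at least 10 FPKM on triticale. MYCTH_89872, the only one at 100 FPKM or more on triticale, had 332 FPKM on oat and 684 on triticale, beside 304 on canola and 38.5 on flax, which gives a ratio of triticale to oat of 2.06 (1.93 to 2.20). It is short (558 bases) and abundant, and its log2 ratio went from -1.04 to -0.54 when both trends were subtracted. MYCTH_107763 had 34.9, 95.1, 46.9 and 9.49 FPKM, with a ratio of 2.72 (2.44 to 3.04), and MYCTH_2307269 had 24.4, 57.4, 89.8 and 36.1 FPKM, with a ratio of 2.35 (2.07 to 2.68). Both stayed past 2-fold without the trends, at -1.44 and -1.33. MYCTH_2316515, a long model of 9617 bases, had 2.46 FPKM on oat from 173 reads and 7.19 FPKM on triticale from 449 reads, with 4.31 on canola and 5.86 on flax. It went against the length trend, and its log2 ratio of -1.24 became -1.88 after subtraction and -0.46 with a pseudocount of 10. Flax was the lowest of the 4 straws for 8 of these 10, and canola the highest for 6. Both counts include the 4 neighbouring genes described next. Over all 26 genes oat was the lowest straw for 15 and flax for 9. Triticale was the highest straw for 13 of the 26 and canola for 10.

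**Figure D4:**
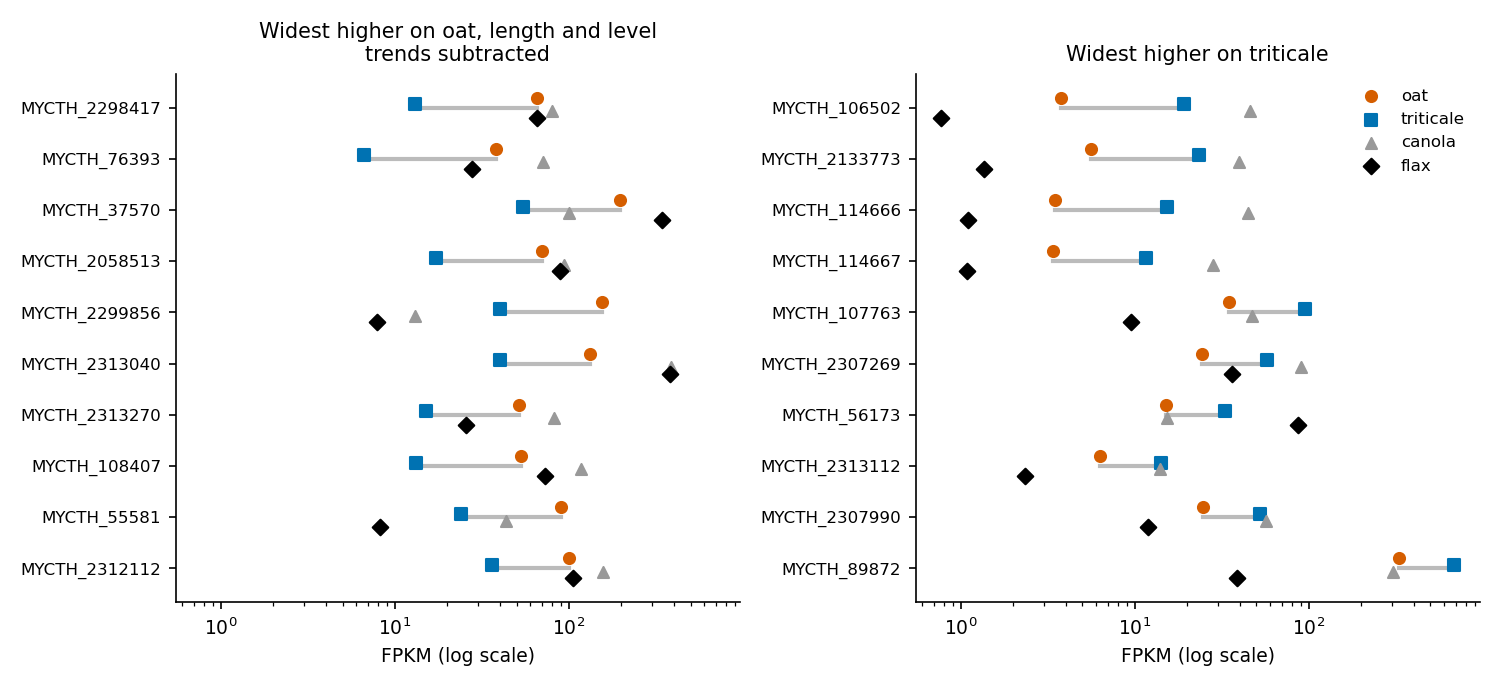
FPKM (log axis) on oat (circle), triticale (square), canola (triangle) and flax (diamond) for the 10 widest oat-higher genes after both trends were subtracted (left) and the 10 widest triticale-higher genes on the values as deposited (right), with a grey line from triticale to oat. On the left triticale is the lowest straw for 8 of 10 genes. On the right flax is the lowest for 8 of 10, against 9 of all 26 triticale-higher genes.

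The 4 widest triticale-higher genes with at least 10 FPKM lie within 6 consecutive genes in RefSeq order. In that order MYCTH_2133773 had 5.59 FPKM on oat and 23.3 on triticale, beside 39.8 on canola and 1.36 on flax. MYCTH_106502 had 3.79 FPKM on oat and 19.1 on triticale, beside 45.9 on canola and 0.774 on flax. MYCTH_114667 had 3.37, 11.6, 28.1 and 1.09 FPKM and MYCTH_114666 had 3.49, 15.2, 44.8 and 1.10 FPKM. All 4 shared the order canola, triticale, oat, flax. Their ratios of triticale to oat were 4.17 (2.84 to 6.28), 5.04 (3.30 to 7.96), 3.44 (2.35 to 5.13) and 4.36 (2.94 to 6.65). They rest on 27 to 37 reads on oat and 113 to 126 on triticale.

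In 3 genes between or just before these 4, canola was again the highest straw, at lower levels, but triticale was not above oat beyond counting error. MYCTH_2303048, just before them, had 1.42 FPKM on oat and 1.20 on triticale, beside 14.3 on canola and 2.54 on flax. MYCTH_78019, between MYCTH_2133773 and MYCTH_106502, had 2.48, 1.63, 12.9 and 2.55 FPKM. Its span overlaps that of MYCTH_2133773 in RefSeq, and reads in the overlap may not be separated. MYCTH_78013, a model of 12611 bases between MYCTH_106502 and MYCTH_114667, had 0.228 FPKM on oat (21 reads), 0.232 on triticale (19 reads), 7.49 on canola (754 reads) and 0.130 on flax (13 reads), and was left out by the level filter. The ratio of triticale to oat was 0.844 (0.402 to 1.73), 0.659 (0.381 to 1.12) and 1.02 (0.518 to 1.99) in these 3 genes. The stretch of 7 genes was thus higher on canola than on every other straw throughout, and higher on triticale than on oat in 4 of its members. It ends 3 genes before the end of its chromosome in RefSeq order. The next gene, MYCTH_2303060, had 6.54 to 10.1 FPKM on all 4 straws, with triticale highest, and was called higher on triticale only after both trends were subtracted (log2 ratio -0.47 before and -1.01 after). The stretch was singled out after the values were seen, canola was also the straw sampled at 30 h, and no annotation of these genes was at hand.

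**Figure D5:**
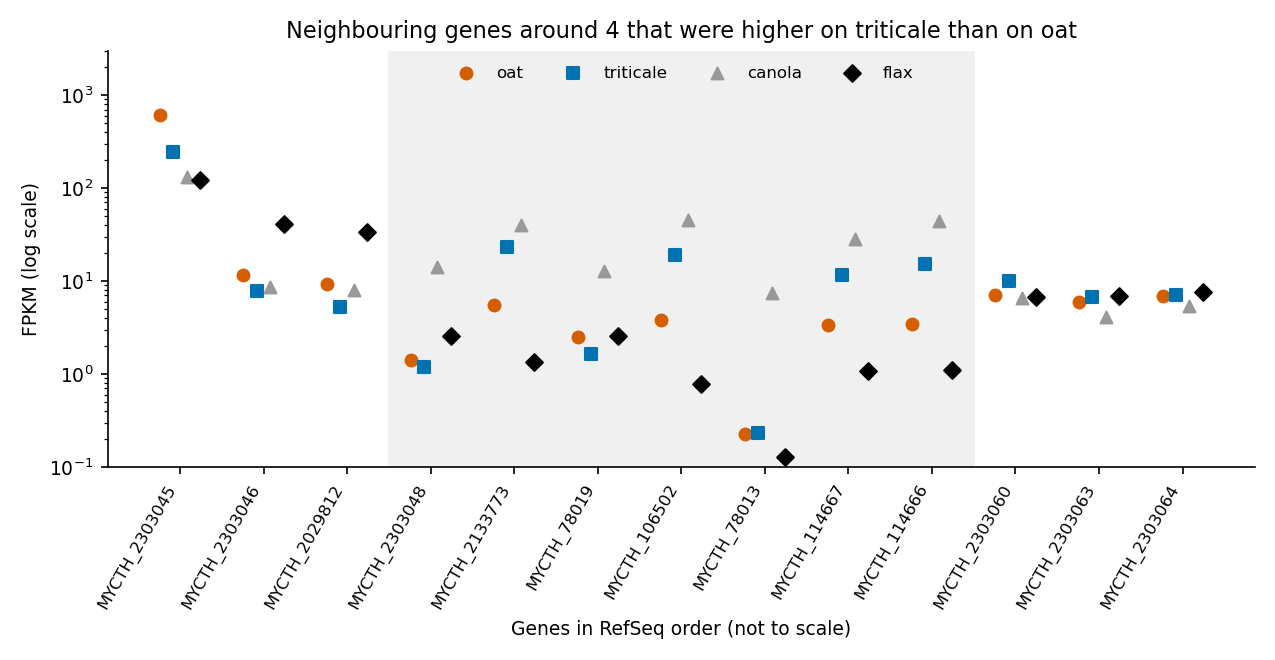
FPKM (log axis) on the 4 straws for 13 neighbouring genes in RefSeq order, with the stretch of 7 genes shaded. In 4 shaded genes triticale (squares) lies between canola (triangles) and oat (circles), whereas in the other 3 triticale lies beside oat and flax.

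At the edge of the 2-fold rule the calls separate near equal genes. MYCTH_38704 (21.6 FPKM on oat, 10.3 on triticale) and MYCTH_2299115 (29.3 and 14.1) were just inside on the oat side. MYCTH_2145354 (14.5 and 6.74) and MYCTH_2295747 (16.5 and 7.77) were just outside. On the triticale side MYCTH_2309623 (1.24 on oat and 3.48 on triticale) and MYCTH_2050866 (0.786 and 2.65, from 1 and 3 reads) were just inside, and MYCTH_109914 (8.40 and 17.6) and MYCTH_2309545 (3.50 and 7.89) just outside.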

How the data were processed

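The authors deposited 1 table of FPKM values for the 4 libraries with the length of each gene model. The kit was Illumina's mRNA-Seq kit and the extraction reagent Trizol, per the labels' protocols. The sources used here name no aligner, counter, build or annotation and do not state strand-specific counting. FPKM times length summed to 1000000 in each deposited column, and 100% of these products were within 0.001 of a whole multiple of the step that 1 read makes, so reads were recovered (7308467 on oat, 6495371 on triticale). Ratios are log2 of FPKM + 1 and understate low genes; ratios in parentheses with intervals are of FPKM (exact Clopper-Pearson, 95%, counting error only). Trends were removed with lowess (span 0.3, 3 robust rounds, alternated 10 times between log2 length and log2 mean FPKM). The 5 by 5 grid, its cell medians and the placing against canola and flax were added after the values were seen. Python 3.11.15, scipy 1.17.1 and statsmodels 0.14.6 were used, and the calculations were tested on simulated data. RefSeq (ASM22609v1) gave names and gene order; no build is named for the values, so no positions are given. Lists that need protein sequences or product text were not used here.

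Genes named by rule are the 10 widest in each direction with at least 10 FPKM on the higher straw, as deposited and without both trends. The rule also takes the 10 with most reads, the 10 largest gains and losses in share of reads, genes with a symbol and those at the threshold. A few of each kind are described. All other genes named were chosen after their values were seen, also where this is not marked, as for MYCTH_2316515, MYCTH_83019 and MYCTH_95427. Members, lists and settings were chosen with earlier results of these data known.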

Additional observations from a re-analysis of the deposited data

How the results depend on the processing

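Direction held for the counts, with more genes higher on oat than on triticale under each of the 19 settings tried, but their size did not. Counts are given as oat then triticale, and medians are log2 ratios. They were 117 and 4 (median 0.10) with a pseudocount of 10, and 1579 and 60 (0.20) with 0.1. They were 589 and 8 (0.0404) at a mean FPKM of at least 10, and 5 and 1 at 4-fold. Median centring gave 682 and 64 (0 by construction), and TMM (trimmed mean of M values) scaling 725 and 59 (0.0164). Rescaling to equal summed FPKM gave 1549 and 27 (0.26), and upper-quartile scaling 1073 and 31 (0.15). Subtracting length decile medians gave 577 on oat (0), and the length trend 466 and 55 (-0.0721). Level decile medians gave 344 and 203 (0), the level trend 304 and 179 (-0.0296), and deciles of canola and flax level 508 and 127 (0). Both trends gave 300 and 136 (-0.0219). Added after seeing the data, both trends with the level from canola and flax gave 412 and 86 (-0.0434), lowess without robust weights 271 and 135 (-0.0485), and grid cells 350 and 149 (0). The share of calls on the oat side was 97.8% as deposited, 91.4% after median centring and 62.9% after the level trend; the cause was not tested. In all, 78 oat-higher genes and 3 triticale-higher genes (MYCTH_106502, MYCTH_107763 and MYCTH_2133773) were called as deposited and in each of the 15 settings that keep all 8164 genes and the 2-fold rule with no added condition. MYCTH_114666 and MYCTH_114667 missed 2-fold with a pseudocount of 10 (-0.90 and -0.69). MYCTH_98003 and MYCTH_100068 were called in 13 of the 15, MYCTH_39279 and MYCTH_83019 in 10, cat1 in 9 and phy1 in 3. With 1 library for each straw no library could be left out. No paired analysis was possible because each group has 1 sample.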

Other observations

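Called genes also lay beside one another. Of the neighbours of oat-higher genes in RefSeq order that entered the comparison, 20.1% were oat-higher too, against 14.3% of all genes, and 34 runs held 3 or more. The longest run, of 6 genes, was MYCTH_2302128, MYCTH_2302129, MYCTH_2143238, MYCTH_2302132, MYCTH_2302133 and MYCTH_2302135, with 4.47 to 18.5 FPKM on oat and 1.43 to 7.31 on triticale. Its log2 ratios were 1.06 to 1.51 as deposited and 0.42 to 0.76 after both trends were subtracted, so none of the 6 was called then. After subtraction 8.03% of the neighbours of oat-higher genes were oat-higher, against 3.67% of all genes, and 7.79% of those of triticale-higher genes were triticale-higher, against 1.67%. None of the 22 and 9 neighbouring pairs behind these shares had overlapping spans. On the values as deposited 11 of the 216 pairs of oat-higher neighbours overlapped. The 26 genes triticale-higher as deposited held 1 such pair, MYCTH_114667 and MYCTH_114666. Of the 136 triticale-higher after subtraction, 24 were called as deposited. In the 9 pairs some deposited ratios lay within counting error, such as MYCTH_38980 with an oat to triticale ratio of 0.489 (0.212 to 1.07). A run of 5 on the values as deposited ended with MYCTH_83019 (123 FPKM on oat, 54.2 on triticale, 117 on canola, 38.7 on flax) and MYCTH_95427 (164, 59.1, 102 and 39.4 FPKM), which were also called after subtraction, at 1.12 and 1.47. With median centring MYCTH_83019 was under 2-fold, at 0.99.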
